A study of Homo sapiens with 6 samples.

Results

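The genes described here are interferon-stimulated genes, taken as a list of 50 symbols that covers antiviral effectors, RNA sensors and the STAT and IRF factors that act on them. Of these, 47 were among the 19469 genes of the count table. IRF7, EPSTI1 and PSMB9 were not analysed here. The genes were measured by RNA-seq in L3.6pl, an established line from a human adenosquamous carcinoma of the pancreas, which was grown without treatment in DMEM with 10% FBS. Cells were separated by FACS on surface L1CAM, an adhesion protein, into a L1CAM-positive population (L1high, 3 libraries) and a L1CAM-negative population (L1low, 3 libraries). The sample titles name the line L3.6pl and the cell line label names it L6.6pl. Both groups come from this 1 line, and no source used here says whether the libraries of a group come from separate cultures or sorts, so the p-values measure the spread between these libraries, which may be technical.

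Interferons are secreted proteins that cells release after sensing viral RNA or DNA. Type I and type III interferons act through the kinases JAK1 and TYK2 and lead to the factor complex ISGF3, which includes STAT2 and IRF9 and binds an interferon-stimulated response element (ISRE) in promoters. Interferon-gamma acts mainly through another element, the gamma-activated site (GAS). Many tumor lines express these genes in culture without any added interferon.

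L1CAM transcripts followed the sort. Levels are given as CPM, the counts of a gene relative to the library total after TMM scaling, and values listed for a group are in the order of its replicates 1, 2 and 3. L1CAM stood at 84.0, 69.8 and 89.5 CPM in L1high and at 17.7, 23.7 and 19.99 CPM in L1low libraries. The libraries held between 16334610 and 21064685 counts in all, fewest in L1high replicate 3. The study's own comparison used 5 of the 6 libraries and left out L1high replicate 3 without a stated reason. All 6 were used here, and the fit over those 5 is given where it changes a call. Of the marker genes of other cells, 1 of 6 immune, 2 of 5 fibroblast or stellate and 1 of 4 endothelial genes were in the table. PTPRC, CD3E, PDGFRB, DCN, VWF and CDH5 had no value here. The summed level of the fibroblast or stellate genes, LUM and ACTA2, ran from 85.0 to 97.5 CPM in L1high and from 138 to 159 CPM in L1low libraries. That of the immune gene CD68 ran from 8.42 to 8.81 and from 9.37 to 11.3 CPM, and that of the endothelial gene PECAM1 from 11.3 to 11.9 and from 13.2 to 14.7 CPM. LUM was itself called higher in L1low cells (log2 fold change of 0.78). All 7 epithelial genes of the line, among them EPCAM and KRT19, were in the table, with sums from 6009 to 6428 CPM in L1high and from 6884 to 7262 CPM in L1low libraries. Within this sum the genes went opposite ways. TP63 (1.12) and KRT19 (0.63) were called higher and EPCAM (-0.30, edgeR adjusted p = 0.0496) was called lower in L1low cells, while KRT8 (-0.23), CDH1 (-0.04), KRT18 (-0.01) and KRT5 (0.12) were not called. The part of these markers in the results that follow was not tested.

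As a list, the interferon-stimulated genes had a median difference near 0 between L1high and L1low cells, as all genes had, while a few single genes differed. Their median log2 fold change (L1low over L1high, so that a positive value means higher in L1low cells) was -0.01, and that of all genes tested was also -0.01. Of the 47 genes, 23 had a positive and 24 a negative value. With edgeR's quasi-likelihood test and Benjamini-Hochberg adjustment over the whole table, 5 of the 47 genes (10.6%) had an adjusted p under 0.05, from here on said to be called, as did 7.95% of all genes. GBP1, STAT2 and DTX3L were higher in L1low cells, against a background of 4.58% of genes called higher, and ISG20 and SAMD9 were lower, against 3.37%. Over the 5 libraries of the study's comparison 5 genes were again called (7.57% of all genes), with IFI35 in place of DTX3L, so that 3 were higher (4.41% of all genes) and 2 lower (3.15%). In sorted bulk samples, fewer cells that express a gene and less of its RNA per cell cannot be told apart. The 95% interval of the log2 fold change stayed within a change of 1.5-fold in either direction for 40 of the 47 genes (85.1%), and for 66.9% of all genes. The median standard error was 0.093 over the 47 genes and 0.12 over all genes, and a smaller error by itself narrows the interval.

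**Figure D1:**
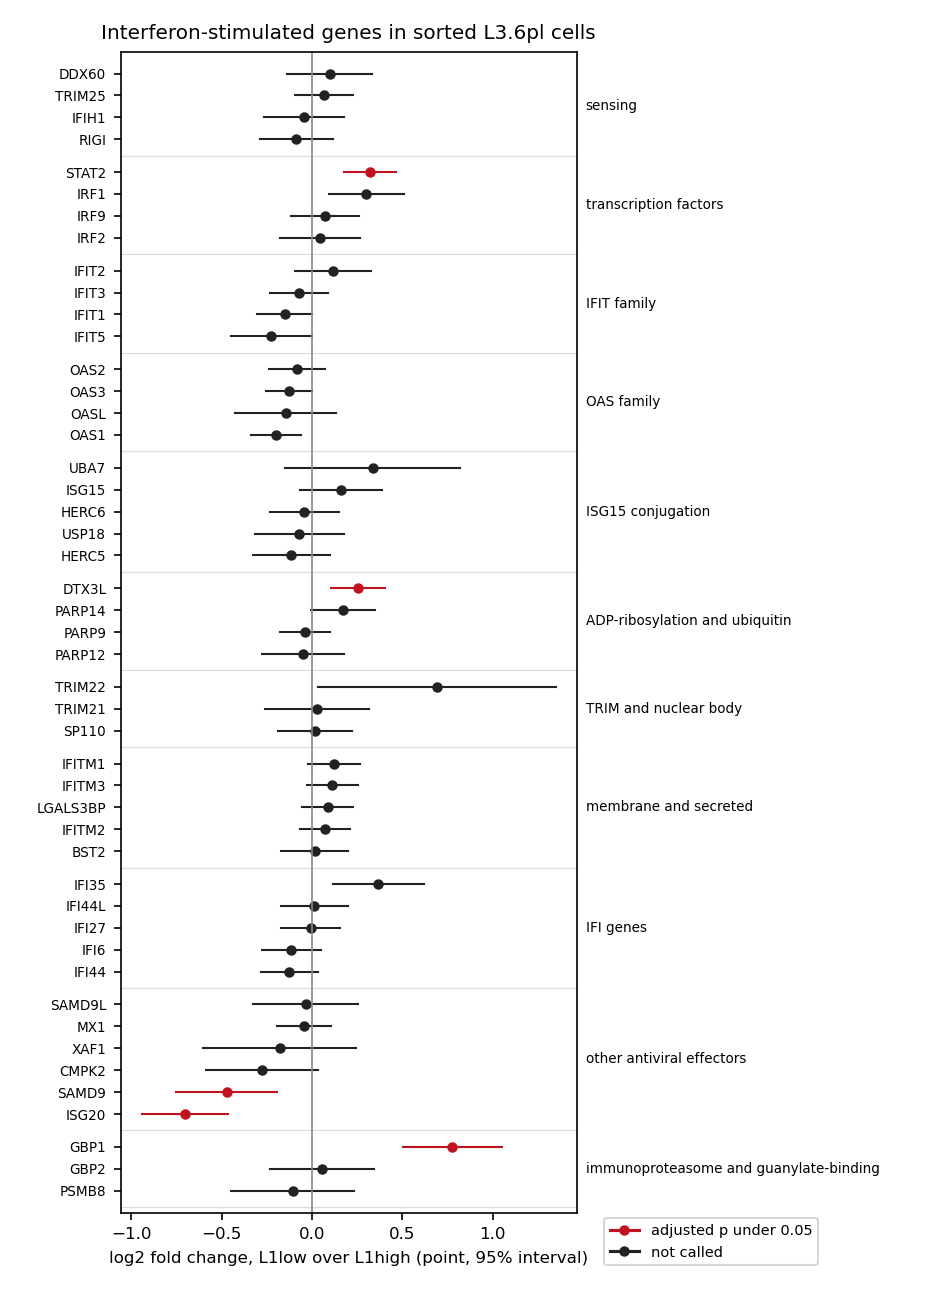
Log2 fold change of each of the 47 interferon-stimulated genes, L1low over L1high, with its 95% interval from edgeR over all 6 libraries, grouped by role. Red points mark an adjusted p under 0.05. GBP1, at 0.78, and ISG20, at -0.70, lie at the ends of the range, and most other genes lie within 0.2 of 0.

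The promoters of these genes were read to show how far the list carries the interferon element. RefSeq promoter windows on GRCh38.p14, from 250 bases before to 50 bases after a gene's start, were at hand for 38 of the 47 genes, in 49 windows. An ISRE-like match (TTTCNNTTTC, or GAAANNGAAA on the other strand) was present in the windows of 26 of the 38 genes (68.4%). Over all genes with a window the share was 4.38%, and over those in the count table it was 3.94%. A GAS-like match (TTCNNNGAA, which reads the same on both strands) was present in 12 of the 38 genes (31.6%), against 9.38% of all genes. The 2 motifs can overlap in a window. Among the called genes 4 of 5 held an ISRE-like match, and among the others 22 of 33. A GAS-like match was held by 0 of the 5 called genes and by 12 of the 33 others, and neither split was tested. Only the letters TTCNNNGAA were searched, so a gene without such a match can still hold a GAS of other letters. STAT2 was the called gene without an ISRE-like match in its window. The stretches below show the match nearest the start, in capitals, in the 4 called genes that hold one and in 4 abundant genes that were not called, each 5′ to 3′ on the gene's own strand. The stretch of DTX3L ends with its match. The starts are those of RefSeq and can lie inside the Ensembl gene bounds given further on.
GBP1 (chr1:89065301-89065360, minus strand): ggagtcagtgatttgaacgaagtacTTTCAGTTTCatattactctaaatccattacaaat
ISG20 (chr15:88638922-88638981, plus strand): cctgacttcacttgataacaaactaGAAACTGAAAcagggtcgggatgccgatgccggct
SAMD9 (chr7:93118081-93118140, minus strand): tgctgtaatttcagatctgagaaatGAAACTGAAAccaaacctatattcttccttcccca
DTX3L (chr3:122564307-122564341, plus strand): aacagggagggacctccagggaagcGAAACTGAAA
IFIT1 (chr10:89392495-89392554, plus strand): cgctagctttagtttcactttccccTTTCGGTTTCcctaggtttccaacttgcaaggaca
ISG15 (chr1:1013365-1013424, plus strand): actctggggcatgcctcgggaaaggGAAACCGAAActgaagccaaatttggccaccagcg
IFI6 (chr1:27672251-27672310, minus strand): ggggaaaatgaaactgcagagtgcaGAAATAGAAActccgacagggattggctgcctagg
IFITM3 (chr11:320861-320920, minus strand): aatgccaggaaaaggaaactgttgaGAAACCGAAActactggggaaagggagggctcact
ISG20, SAMD9 and DTX3L held the same 10 letters, GAAACTGAAA, and GBP1 held them on the other strand, as TTTCAGTTTC. These letters were not particular to called genes. On either strand, BST2, DDX60, IFI44, IFIT3, IFIT5, IFITM1, OAS3, PARP9 and TRIM21 also held them, and none of these was called. ISG20 and SAMD9 were lower in L1low cells while DTX3L and GBP1 were higher, so the letters of the match did not sort the called genes by direction. IFIT1, ISG15 and IFITM3 held 2 matches each and IFI6 held 3.

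The levels of these genes covered a wide range and were close in both populations. Scaled to the length of the Ensembl canonical transcript (RPKM), the most abundant was IFITM3, at 898 ± 49.2 in L1high and 971 ± 45.6 in L1low cells (SD, n = 3). It encodes a membrane protein that blocks the entry of enveloped viruses. IFITM1, of the same family, followed at 640 ± 22.4 and 697 ± 44.7 RPKM. IFITM1, IFITM2 and IFITM3 are related neighbours on chromosome 11. Reads could have been shared or lost among them, so their single levels are uncertain. Next came IFI6, a small protein that guards mitochondria and the endoplasmic reticulum, at 421 ± 15.1 and 389 ± 36.8 RPKM, IFITM2 at 364 ± 12.6 and 382 ± 19.7, and IFI27 at 369 ± 30.8 and 367 ± 20.3. IFITM2 and IFI27 did not differ beyond their spread in either population, and IFI6 stood above them by more than the SD in L1high cells and not in L1low cells. LGALS3BP, a secreted glycoprotein, stood at 234 ± 15.7 and 248 ± 2.08 RPKM. ISG15, a ubiquitin-like protein that is attached to other proteins, stood at 87.3 ± 12.2 and 97.4 ± 6.85 RPKM. The lowest were XAF1, UBA7 and TRIM22, the last at 0.499 ± 0.0511 and 0.809 ± 0.333 RPKM. By level over the 6 libraries, IFITM3 stood above 99.8% of the 13457 protein-coding genes of the table and TRIM22 above 7.33%. Together the 47 genes took between 0.464% and 0.486% of the counts of a library.

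Of the called genes, GBP1 showed the largest rise. It encodes a guanylate-binding protein, a large GTPase that coats intracellular pathogens and that interferon-gamma induces strongly. GBP1 (ENSG00000117228, chromosome 1, bases 89051882 to 89065360, minus strand, all gene bounds on GRCh38) stood at 5.23, 6.18 and 5.85 CPM in L1high and at 9.91, 9.92 and 9.77 CPM in L1low libraries. The groups did not overlap, and the L1low libraries lay close together. The values rest on 111, 127 and 96 counts in L1high and on 180, 178 and 173 in L1low libraries. This was a log2 fold change of 0.78 ± 0.13 (SE), with an edgeR adjusted p of 0.0029, a 1.71-fold higher level. It stayed called under all 13 alternatives tried, from 0.71 to 0.84. GBP2, its neighbour and paralog, stood at 8.20, 9.64 and 7.74 CPM in L1high and at 9.63, 8.41 and 8.64 CPM in L1low libraries, and the groups overlapped. Its log2 fold change was 0.06 with a 95% interval from -0.23 to 0.35. PSMB8, a catalytic subunit of the immunoproteasome, which cuts proteins into peptides for MHC class I, had a log2 fold change of -0.11 (95% interval from -0.45 to 0.24). GBP1 was thus the gene called among the 3 measured of this role.

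Of the called genes, ISG20 showed the largest fall. It encodes an exonuclease that degrades single-stranded RNA. ISG20 (ENSG00000172183, plus strand of chromosome 15 from 88635670 to 88656483) stood at 21.1, 19.96 and 23.4 CPM in L1high and at 13.8, 13.8 and 11.9 CPM in L1low libraries. Each L1low library lay well below each L1high library. This was a log2 fold change of -0.70 ± 0.11 (SE), with an edgeR adjusted p of 0.0022, and it stayed called under all 13 alternatives, from -0.75 to -0.63.

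SAMD9, a cytoplasmic protein that restricts poxviruses and slows translation, was also lower in L1low cells. SAMD9 (ENSG00000205413, minus strand of chromosome 7 from 93099513 to 93118023) stood at 84.7, 93.3 and 71.7 CPM in L1high and at 71.5, 59.2 and 49.4 CPM in L1low libraries. The groups did not overlap, but L1high replicate 3 and L1low replicate 1 nearly met. This was a log2 fold change of -0.47 ± 0.13 (SE), with an edgeR adjusted p of 0.046, the called value nearest the threshold. The call was lost without L1high replicate 1 (-0.46, adjusted p = 0.15), without L1high replicate 2 (-0.38, adjusted p = 0.13), without L1low replicate 2 (-0.46, adjusted p = 0.18) and without L1low replicate 3 (-0.34, adjusted p = 0.13). With the replicate number as a block the adjusted p was 0.0013. SAMD9L, its paralog on the same strand nearby, stood at 16.4, 18.8 and 13.2 CPM in L1high and at 17.2, 15.4 and 14.8 CPM in L1low libraries. Its log2 fold change was -0.03 with a 95% interval from -0.33 to 0.26. The remaining effectors of this role had negative values without a call. MX1, a dynamin-like GTPase that traps viral particles, had a log2 fold change of -0.04 (95% interval from -0.19 to 0.10), XAF1, an antagonist of the apoptosis inhibitor XIAP, one of -0.18, and CMPK2, a mitochondrial nucleotide kinase, one of -0.27.

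**Figure D2:**
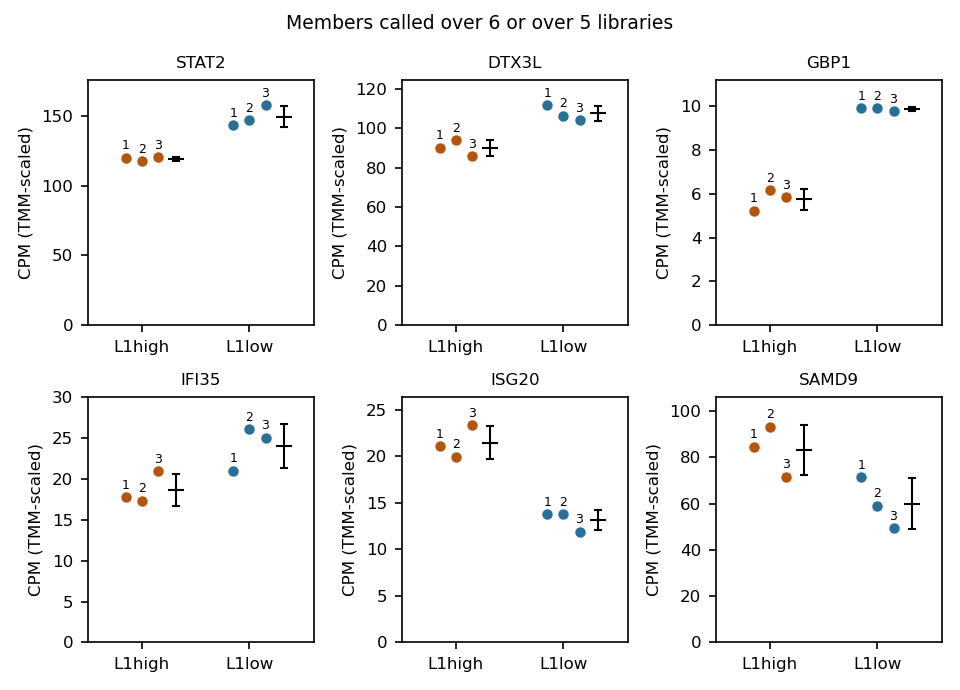
TMM-scaled CPM of the 6 genes called over 6 or over 5 libraries, one point per library with its replicate number, and the mean with its SD (n = 3) beside each group. Each axis starts at 0. In none of the 6 genes do the groups overlap. IFI35 and SAMD9 nearly meet, IFI35 at 21.0 CPM in both L1high replicate 3 and L1low replicate 1.

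Among the transcription factors, STAT2 was higher in L1low cells. STAT2, the subunit of ISGF3 that carries its main activation domain, (ENSG00000170581, minus strand of chromosome 12 from 56341597 to 56360203) stood at 120, 118 and 120 CPM in L1high and at 143, 147 and 158 CPM in L1low libraries. All L1low libraries lay above all L1high libraries, which were nearly level. This was a log2 fold change of 0.32 ± 0.07 (SE), with an edgeR adjusted p of 0.011, a 1.25-fold higher level. Without L1high replicate 1 the adjusted p was 0.067, and without L1low replicate 2 it was 0.057, with log2 fold changes of 0.33 and 0.34. IRF1, an early target of interferon-gamma, stood at 19.8, 20.9 and 20.4 CPM in L1high and at 22.8, 26.0 and 26.6 CPM in L1low libraries. These groups did not overlap either, yet the edgeR adjusted p was 0.080 at a log2 fold change of 0.30. IRF9, the DNA-binding partner of STAT2 in ISGF3, stood at 41.5, 46.7 and 40.9 CPM in L1high and at 43.7, 43.7 and 48.3 CPM in L1low libraries. The groups overlapped, and its log2 fold change of 0.07 (95% interval from -0.12 to 0.26) fell short of a call. IRF2, which can repress interferon targets, had one of 0.04.

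DTX3L and PARP9 are a head-to-head gene pair whose proteins, a ubiquitin ligase and an ADP-ribosyltransferase, form one complex. The ISRE-like match of DTX3L, at bases 122564332 to 122564341 of chromosome 3, is also the match in the window of PARP9, 41 to 32 bases before the start of PARP9. DTX3L (ENSG00000163840, plus strand of chromosome 3 from 122564338 to 122575203) stood at 90.1, 93.95 and 85.9 CPM in L1high and at 112, 106 and 104 CPM in L1low libraries. All L1low libraries lay above all L1high libraries. This was a log2 fold change of 0.26 ± 0.07 (SE), with an edgeR adjusted p of 0.043. The call was lost without L1high replicate 1 (0.26, adjusted p = 0.17), without L1high replicate 3 (0.23, adjusted p = 0.097), without L1low replicate 1 (0.23, adjusted p = 0.12), without L1low replicate 2 (0.26, adjusted p = 0.15) and when counts were scaled to library totals alone (0.24, adjusted p = 0.053). PARP9 stood at 122, 125 and 122 CPM in L1high and at 125, 118 and 117 CPM in L1low libraries. The groups overlapped, and its log2 fold change was -0.04 (95% interval from -0.18 to 0.10). PARP14 had a log2 fold change of 0.17 and PARP12 one of -0.05, neither of them called. The 5′ parts of DTX3L and PARP9 overlap on opposite strands, and whether counting used strand is not given in the sources used here.

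Count ratios between partner or neighbouring genes, which do not depend on the scaling of a library, were taken for 4 pairs that were chosen after their values were seen. DTX3L counts over PARP9 counts were 0.739, 0.750 and 0.703 in L1high and 0.897, 0.899 and 0.891 in L1low libraries. The spread within a group was small beside the gap between them. STAT2 over IRF9 was 2.78 ± 0.232 in L1high and 3.30 ± 0.0483 in L1low cells (SD, n = 3). GBP1 over GBP2 was 0.678 ± 0.0671 and 1.11 ± 0.0767, and SAMD9 over SAMD9L was 5.19 ± 0.230 and 3.78 ± 0.410. Each pair sets a called gene over a partner that was not called, so that the groups stood apart in all 4 follows from the choice of pairs, and the ratios are given as a description with no test.

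**Figure D3:**
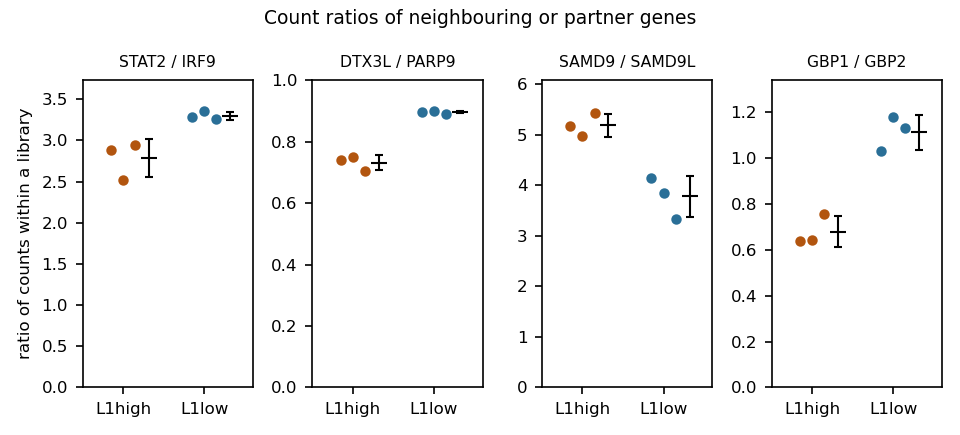
Ratio of raw counts within each library for 4 gene pairs, one point per library (L1high orange, L1low blue), with the mean and its SD (n = 3) beside each group and axes from 0. The DTX3L over PARP9 ratio moves from 0.731 ± 0.0248 to 0.896 ± 0.0039, and SAMD9 over SAMD9L is the pair whose ratio is lower in L1low cells.

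The IFIT and OAS families, which hold classical antiviral effectors, had no called gene with edgeR or with DESeq2. At an unadjusted p under 0.05, edgeR passed 0 of the 4 IFIT genes and 1 of the 4 OAS genes, where 23.3% of all genes passed, so these few genes cannot be told from the rest of the table by this count. IFIT proteins bind foreign RNA at its 5′ end. Of the 4 IFIT genes, IFIT1 had most counts and stood at 102, 108 and 107 CPM in L1high and at 94.2, 90.3 and 101 CPM in L1low libraries. All L1low libraries were the lower ones, by a narrow margin, and the log2 fold change of -0.15 was not called (95% interval from -0.30 to 0.00, edgeR adjusted p = 0.22). IFIT3 (-0.07) and IFIT5 (-0.22) had values on the same side and IFIT2 (0.12) on the other. OAS enzymes make 2′-5′-linked oligoadenylates, which activate RNase L, while OASL lacks this activity and acts with RIG-I. All 4 genes of the family had negative values, from -0.20 for OAS1 to -0.08 for OAS2. OAS3, the most counted, stood at 242, 235 and 248 CPM in L1high and at 221, 221 and 221 CPM in L1low libraries, and the groups did not overlap. Its log2 fold change was -0.13 (95% interval from -0.26 to 0.00, adjusted p = 0.22). OAS1 came nearest to a call, with an adjusted p of 0.086 from the same edgeR test. The 3 genes OAS1, OAS2 and OAS3 lie side by side on chromosome 12, and the intervals of all 4 OAS genes stayed within 1.5-fold.

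The 4 RNA sensing genes had log2 fold changes between -0.09 and 0.10, and none was called with edgeR or DESeq2 or had an unadjusted p under 0.05 (23.3% of all genes). TRIM25, a ubiquitin ligase that acts on the sensor RIG-I, stood at 142, 132 and 147 CPM in L1high and at 141, 141 and 159 CPM in L1low libraries, with a log2 fold change of 0.07 (95% interval from -0.10 to 0.23). RIGI, which encodes RIG-I itself, had a log2 fold change of -0.09, IFIH1, which encodes the sensor MDA5, one of -0.04, and DDX60, a helicase that aids RIG-I, one of 0.10. The groups overlapped in all 4. TRIM25 overlaps C17orf67 and the microRNA gene MIR3614 on its own strand.

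ISG15 and the genes grouped with its attachment or removal also stayed without a call with edgeR and DESeq2, and 0 of the 5 had an unadjusted p under 0.05 (23.3% of all genes). ISG15 stood at 58.7, 46.8 and 61.4 CPM in L1high and at 57.7, 62.1 and 66.4 CPM in L1low libraries. L1high replicate 2 was the low library, and without it the log2 fold change of 0.16 became 0.05. UBA7, the activating enzyme, had few counts, with 64, 54 and 58 in L1high and 91, 53 and 63 in L1low libraries, and a log2 fold change of 0.34 with a wide 95% interval from -0.15 to 0.82. The ligase HERC5 (-0.11), the related HERC6 (-0.04), and USP18, the protease that removes ISG15 and dampens interferon receptor signaling (-0.07), had values near 0.

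Among the IFI genes, IFI35 was the gene nearest to the threshold without a call. IFI35 (ENSG00000068079, plus strand of chromosome 17 from 43006740 to 43014456), a binding partner of NMI, stood at 17.8, 17.3 and 21.0 CPM in L1high and at 21.0, 26.1 and 25.1 CPM in L1low libraries. The groups did not overlap, with L1high replicate 3 just under L1low replicate 1. The log2 fold change of 0.37 ± 0.12 (SE) had an edgeR adjusted p of 0.077 over all 6 libraries. It was called without L1high replicate 3 (0.46, adjusted p = 0.037), without L1low replicate 1 (0.46, adjusted p = 0.047) and with the replicate number as a block (0.37, adjusted p = 0.029). The most abundant gene of this role, IFI6, stood at 331, 355 and 340 CPM in L1high and at 284, 321 and 344 CPM in L1low libraries. The groups overlapped, and the log2 fold change was -0.11 (95% interval from -0.28 to 0.05). IFI44 (-0.13), IFI44L (0.01) and IFI27 (-0.01) were not called.

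The 5 membrane and secreted proteins had log2 fold changes from 0.02 to 0.12, with none called by edgeR or DESeq2 and 0 at an unadjusted p under 0.05 (23.3% of all genes). IFITM3 stood at 537, 526 and 583 CPM in L1high and at 604, 562 and 614 CPM in L1low libraries, with a log2 fold change of 0.11 (95% interval from -0.03 to 0.26). BST2, or tetherin, which holds budding virus at the cell surface, had one of 0.02, and LGALS3BP one of 0.09. In the TRIM and nuclear body group, SP110 had a log2 fold change of 0.02 (95% interval from -0.19 to 0.22) and TRIM21, an intracellular antibody receptor, one of 0.03. TRIM22 had the fewest counts of the 47 genes, 28, 33 and 23 in L1high and 62, 28 and 36 in L1low libraries. At a log2 fold change of 0.69 the edgeR adjusted p was 0.19, and L1low replicate 1 was the highest library, with replicate 3 also above, and replicate 2 among, the L1high libraries. TRIM22 overlaps TRIM5 on the opposite strand.

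No overlap between the 3 L1low and the 3 L1high libraries was seen in 12 of the 47 genes (25.5%) and in 28.8% of all genes. In 6 of them the L1low libraries were higher (15.2% of all genes) and in 6 they were lower (13.7%). The higher ones were STAT2, IRF1, DTX3L, LGALS3BP, IFI35 and GBP1, and the lower ones were IFIT1, IFIT3, OAS1, OAS3, ISG20 and SAMD9.

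Differences between libraries of one group were small for the list as a whole. Relative to the mean of a library's own group, the median of the 47 genes on the log2 CPM scale was -0.04, 0.05 and 0.01 in L1high and 0.03, -0.05 and 0.03 in L1low libraries. Over all genes this median stayed between 0.00 and 0.01. L1high replicate 1 and L1low replicate 2 were thus the low libraries, with 14 and 12 of the 47 genes above the mean of their group, against 31, 28, 30 and 25 in L1high replicates 2 and 3 and L1low replicates 1 and 3. Over all genes the share above the group mean was 53.7%, 50.7% and 50.8% in L1high and 49.1%, 51.0% and 52.8% in L1low libraries. L1high replicate 2 was the highest of the 6 libraries in 17 genes (36.2%, and in 23.5% of all genes), and L1high replicate 1 in 0 genes (10.3% of all genes). The median absolute difference between 2 libraries of a group ran from 0.10 to 0.15 over the list and from 0.12 to 0.20 over all genes. The shift between the low and the high libraries of a group, at most 0.09, was larger than the difference of the list between L1high and L1low cells.

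**Figure D4:**
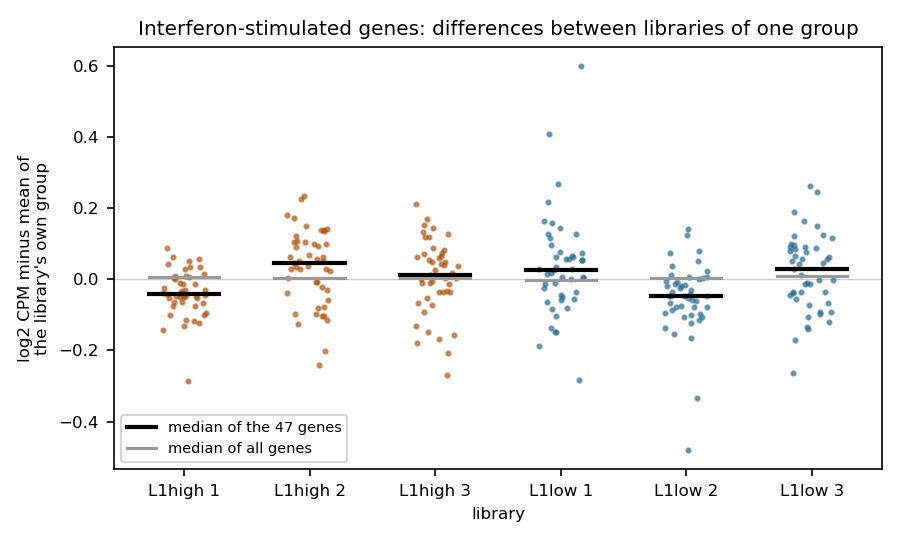
Log2 CPM of each of the 47 genes minus the mean of the library's own group, one point per gene and library. Black bars give the median of the 47 genes, from -0.05 in L1low replicate 2 to 0.05 in L1high replicate 2, and grey bars that of all genes, between 0.00 and 0.01.

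Single genes varied more between libraries of one group. TRIM22 spanned 1.08 on the log2 scale among the L1low libraries and UBA7 spanned 0.74, both with L1low replicate 1 the highest. SAMD9 spanned 0.53 among the L1low libraries, with replicate 1 the highest and replicate 3 the lowest. SAMD9L spanned 0.50 among the L1high libraries, where replicate 2 was the highest, and SAMD9 0.38, with the same library the highest. XAF1, a gene of low level, spanned 0.51 among the L1high and 0.53 among the L1low libraries. At the other end, OAS3 spanned less than 0.01 among the L1low libraries and 0.08 among the L1high libraries, where STAT2 spanned the least, 0.03.

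**Figure D5:**
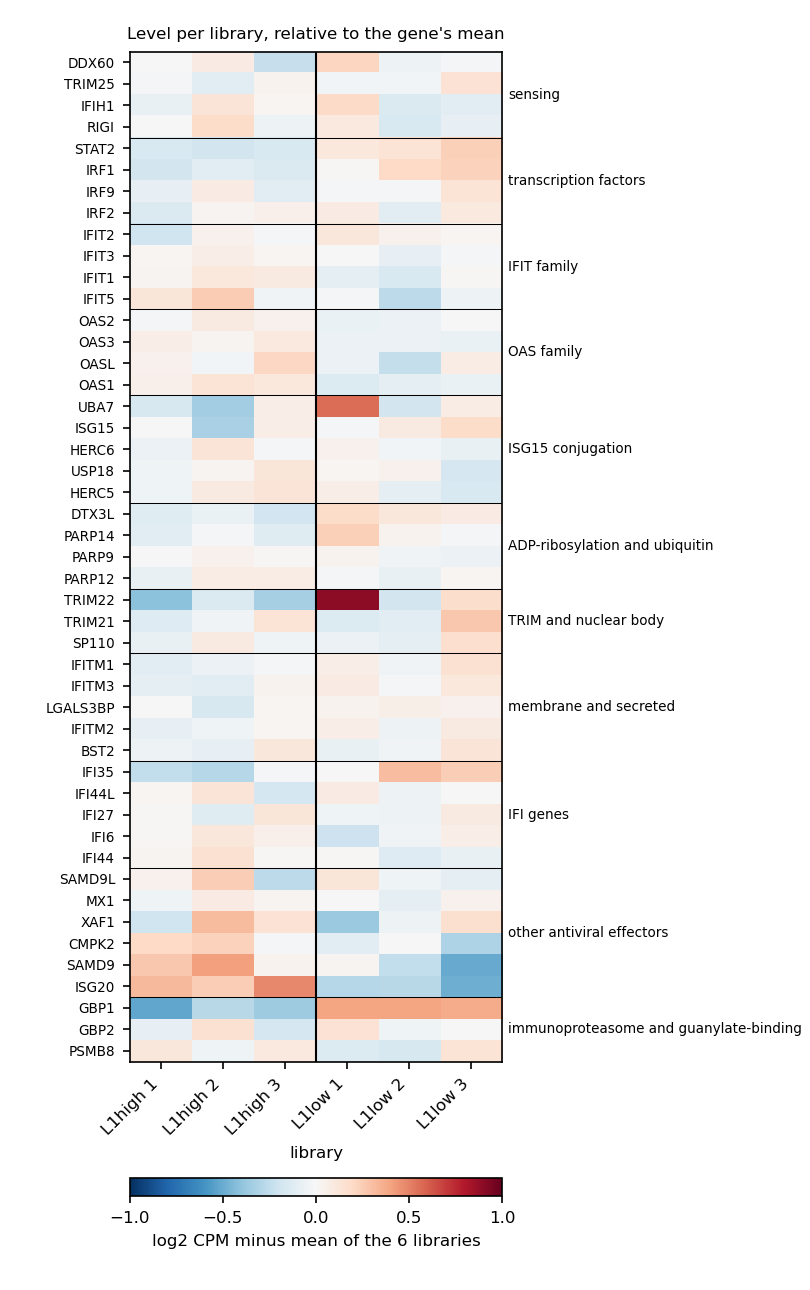
Heat map of log2 CPM minus the gene's mean over the 6 libraries, for 47 genes (rows, by role) and 6 libraries (columns, L1high left of the line). GBP1 and ISG20 change sides at the line in all libraries, as do, with smaller differences, STAT2, IRF1, DTX3L, OAS1 and OAS3. SAMD9 does so in all but L1low replicate 1, and TRIM22 and UBA7 are highest in L1low replicate 1.

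Of 76 further genes of the interferon pathway, 60 were in the table. Their log2 fold changes had a median of 0.02, and 9 were called (beside 7.95% of all genes), 6 higher and 3 lower in L1low cells. At the start of the pathway, IFNE, an epithelial type I interferon, was the ligand measured, with 24, 31 and 22 counts in L1high and 43, 35 and 47 in L1low libraries. At a log2 fold change of 0.81 the edgeR adjusted p was 0.063, short of a call. IFNE overlaps the long noncoding RNA gene MIR31HG on its own strand. Reads could have been shared or lost between them, so the level of IFNE is uncertain. None of the 9 genes for receptors and their kinases was called by edgeR, and 0 by DESeq2, with 3 at an unadjusted p under 0.05 in edgeR (23.3% of all genes), and all 9 had intervals within 1.5-fold. Among the inhibitors, SOCS3, which blocks JAK kinases after cytokine stimulation, stood at 79.5, 72.8 and 85.1 CPM in L1high and at 127, 130 and 131 CPM in L1low libraries. The groups lay far apart, with a log2 fold change of 0.71 ± 0.07 (SE) and an edgeR adjusted p of 1.2e-04. SOCS1 had 21, 22 and 14 counts in L1high and 12, 14 and 20 in L1low libraries, and was not called. Among the sensing genes STING1, the adaptor for cytosolic DNA, stood at 87.6, 84.2 and 90.0 CPM in L1high and at 115, 111 and 119 CPM in L1low libraries, with a log2 fold change of 0.40 (adjusted p = 0.0035). CGAS, the enzyme upstream of STING1, had one of -0.09 and was not called.

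Among the further effectors of the pathway, 6 of 30 were called, 4 higher and 2 lower in L1low cells, beside 7.95% of all genes called, 4.58% higher and 3.37% lower. CXCL10, a chemokine that interferon-gamma induces, had 43, 68 and 35 counts in L1high and 22, 17 and 16 in L1low libraries, which is a log2 fold change of -1.29 ± 0.28 (SE), with an edgeR adjusted p of 0.016. CXCL10 stood at 2.03, 3.31 and 2.13 CPM in L1high and at 1.21, 0.947 and 0.904 CPM in L1low libraries. It met the limit of the deposited counts, 1 CPM in at least 2 libraries, only through L1high, so its fall is given as a description. Its call was lost without L1high replicate 2 (-1.02, adjusted p = 0.056), without L1low replicate 2 (-1.23, adjusted p = 0.087) and without L1low replicate 3 (-1.20, adjusted p = 0.057), and DESeq2 gave it no adjusted p. WARS1, the tryptophanyl-tRNA synthetase, also fell, from 236 ± 8.94 to 180 ± 2.33 CPM (SD, n = 3), by 0.39 on the log2 scale (adjusted p = 0.0025). CXCL10 and WARS1 were lower and GBP1, another gene known to be induced by interferon-gamma, was higher in L1low cells. IRF1, an early interferon-gamma target (0.30), GBP2 (0.06), PSMB8 (-0.11) and TAP1 (-0.20) were not called. Whether these genes share a cause was not tested. PML (0.32) and SP100 (0.30), both components of PML nuclear bodies, were called higher, as were the ubiquitin ligase RNF213 (0.25) and SHISA5 (0.25). The calls of PML were lost without L1high replicate 1 (adjusted p = 0.081) and without L1low replicate 2 (adjusted p = 0.11), and those of SP100 without L1high replicate 1 (adjusted p = 0.12), L1low replicate 2 (adjusted p = 0.074) or L1low replicate 3 (adjusted p = 0.051). RNF213 was called in none of the 6 fits that left out 1 library (adjusted p from 0.060 to 0.14), and SHISA5 in 1 of them, that without L1high replicate 3 (the other 5 from 0.063 to 0.18). SHISA5 also missed the threshold with library totals alone (0.057) and upper-quartile factors (0.052). SOCS3, STING1 and WARS1 stayed called under all 13 alternatives.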

How the data were processed

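L3.6pl cells sorted into L1high and L1low populations were profiled in 3 libraries each. From TruSeq stranded mRNA libraries the authors mapped paired reads with BWA (GRCh38) and assigned them to Ensembl release 94 genes using featureCounts. What they deposited are raw counts, and each gene of the deposited table exceeds 1 CPM in at least 2 of the 6 libraries. Tool versions and the strand and multi-mapping options are not given in the sources used here. Symbols came from GENCODE 44 on GRCh38, which matched 19344 of 19469 identifiers.

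L1low was compared with L1high over all 6 libraries with edgeR 4.0.16 in R 4.3.3 (TMM factors, filterByExpr, which kept 19467 genes, quasi-likelihood test, Benjamini-Hochberg adjustment, calls at an adjusted p under 0.05). The fit was tested on simulated data. The standard error (SE) is the log2 fold change divided by the square root of F, and log2 CPM used a prior count of 2. The common biological coefficient of variation was 0.093. No library pair agreed within sampling noise (chi-square per degree of freedom of at least 3.66).

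The alternatives were each library left out, DESeq2 1.42.0, a block on the replicate number, RLE, upper-quartile or no scaling factors, no filter, and at least 10 counts in every library. Named genes were called genes, those nearest the threshold or called over 5 or 6 libraries alone, the most counted gene of each role without a call, and called pathway genes, and the text gives other members by value. The members, roles and lists were chosen with earlier results of these data known. Some genes of the pathway list are counted there but not reported here singly. Of the 47 genes, 18 overlap another gene of the table, 2 on the same strand.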

Additional observations from a re-analysis of the deposited data

How the results depend on the processing

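Over 13 alternatives the median log2 fold change of the 47 genes stayed between -0.02 and 0.02. Single libraries moved how many of them were called. Across the 6 fits that each left out 1 library this count ran from 2 to 5, with 1 to 3 higher and 1 to 2 lower in L1low cells, and the lowest count, of ISG20 and GBP1 alone, came without L1high replicate 1 or without L1low replicate 2. Over all genes the same fits called from 627 to 1473, and over the pathway list from 3 to 8. With the replicate number as a block, 2363 genes of the table and 6 of the 47 were called, IFI35 being added. Same-numbered libraries correlated at 0.117, 0.0967 and 0.292 in their deviations from the group means over 17023 genes. Each L1low library correlated most with the L1high library of its own number, and differently numbered pairs ran from -0.198 to 0.106. The value of 0.106, between L1high replicate 2 and L1low replicate 1, was slightly above that of the 2 libraries numbered 2. The sources used here do not say whether the numbers pair the libraries, so the main fit used no block. With DESeq2, RLE or upper-quartile factors, no filter, or at least 10 counts in every library, the same 5 genes were called, and scaling to library totals alone called 4 of them, without DTX3L. The filter removed 2 genes and none of the 47, and scaling moved the median of all genes by at most 0.01. Among the other named genes with no call, SP110 changed sign without L1high replicate 1 (-0.02) and without L1low replicate 3 (-0.06). Genes with few counts, such as TRIM22, UBA7 and CXCL10, had standard errors of 0.22 to 0.30, against a median of 0.09 over the 47 genes.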
